A study of Rattus norvegicus with 12 samples.

Results

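The genes described here are those that striatal cholinergic interneurons use to make, load and recover acetylcholine, together with the muscarinic receptors that respond to it. They were chosen by name, as *Chat*, *Slc5a7*, *Slc18a3*, *Ache*, *Lhx8* and *Chrm1* to *Chrm5*, and all 10 were among the 17337 genes of the count table. The choice was made with earlier results of these data known. Gene expression was measured by RNA sequencing of the whole striatum of 12 young adult male Sprague–Dawley rats, labelled as wild type (WT) and as treated with methamphetamine (MA), each of which had self-administered MA for 16 days. Of these rats, 4 were killed after 12 h of abstinence (MA12) and 4 after 24 h (MA24), and the remaining 4 carry the label non-addicted. The criterion behind that label and the time at which these rats were killed are not given in the sources used here. Where sessions began at the same hour, MA12 and MA24 rats were also killed at different times of day, which cannot be told apart from the length of abstinence. The labels give all 12 samples the same batch. No group here is labelled as having taken saline or as killed directly after the last session. No value below is therefore a difference from rats without MA.

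Cholinergic interneurons are rare, large and tonically active cells, and they are the main source of acetylcholine in the striatum. Choline acetyltransferase (*Chat*) makes the transmitter, the vesicular transporter VAChT (*Slc18a3*) loads it into synaptic vesicles, acetylcholinesterase (*Ache*) splits it in the cleft, and the high-affinity choline transporter CHT1 (*Slc5a7*) brings the freed choline back into the terminal. The transcription factor LHX8 (*Lhx8*) directs the cholinergic fate of these cells. Of the 5 muscarinic receptors, M1, M3 and M5 couple to Gq and phospholipase C, whereas M2 and M4 couple to Gi/o and lower cAMP. In the striatum M1 and M4 are the main types on projection neurons, M4 mostly on those of the direct pathway, and M2 and M4 act as autoreceptors on the cholinergic cells.

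The libraries held between 17908962 and 23850284 counts each, and levels are given as CPM, the counts of a gene scaled to a common library total with TMM factors. Markers of striatal projection neurons (10 of 10 in the table, such as *Ppp1r1b* and *Drd1*) summed to 13960 to 18440 CPM in every library, and those of cortex (6 genes) to 14.7 to 27.6 CPM. Markers of the thalamus (4 genes, carried mostly by *Prkcd*) summed to 28.8 to 58.5 CPM in MA12, 23.7 to 27.9 CPM in MA24 and 24.4 to 68.7 CPM in the non-addicted rats, and those of pallidum and basal forebrain (5 genes), regions that also hold cholinergic neurons, to 52.0 to 80, 50 to 58.7 and 52.7 to 83.8 CPM. Markers of the hypothalamus (5 genes, with *Pmch* and *Sim1* at 0 in all 12 libraries) reached at most 13.0 CPM, those of the choroid plexus (4 genes) at most 23.3 CPM, and those of midbrain dopamine neurons (4 genes) at most 1.79 CPM. The part of these tissues in the results below was not tested. The numbers of all 4 MA24 rats and of 2 MA12 rats (4N and 7N) end in N, those of the other 2 MA12 rats (21 and 31) and of the non-addicted rats do not, and the meaning of N is not given in the sources used here. Values below among rats numbered with N, or without N, therefore rest on only 2 MA12 rats. Their adjusted p-values come from fewer rats than those of the main fit. The choroid plexus sums were 2.16 to 4.29 CPM in the rats numbered with N and 5.83 to 23.3 CPM in those without. Tissue make-up thus differed by the kind of rat number as well as by group, and its part was not tested. Because whole tissue was sequenced, fewer cholinergic cells and less RNA per cell cannot be told apart.

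*Chat* and *Slc18a3* form 1 locus. In the RefSeq annotation of the GRCr8 assembly the *Slc18a3* gene lies inside the span of *Chat* on the same strand, and their starts are 602 bases apart. Reads that fall on both genes could have been counted for either, for both or for neither, so their separate levels are uncertain. To show how the paired start sites differ, and beside them those of the receptors with the lowest adjusted p-values in MA24 vs. MA12, the 250 bases before the annotated start of each gene are printed 5′ to 3′ on the gene's strand, from RefSeq (GRCr8). They are chr16:7723417-7723666 (minus strand) for *Chat*, chr16:7722815-7723064 (minus strand) for *Slc18a3*, chr17:64696677-64696926 (plus strand) for *Chrm3* and chr3:98348830-98349079 (plus strand) for *Chrm4*. Capitals mark matches on either strand to the E-box CACGTG, the cAMP response element half-site TGACG, the homeodomain core TAATTA and the GC box GGGCGG.
Chat: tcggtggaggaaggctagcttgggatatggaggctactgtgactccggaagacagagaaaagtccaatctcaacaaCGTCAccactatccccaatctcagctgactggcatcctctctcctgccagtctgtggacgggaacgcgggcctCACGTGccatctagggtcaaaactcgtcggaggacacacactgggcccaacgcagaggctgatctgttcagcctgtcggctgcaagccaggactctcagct
Slc18a3: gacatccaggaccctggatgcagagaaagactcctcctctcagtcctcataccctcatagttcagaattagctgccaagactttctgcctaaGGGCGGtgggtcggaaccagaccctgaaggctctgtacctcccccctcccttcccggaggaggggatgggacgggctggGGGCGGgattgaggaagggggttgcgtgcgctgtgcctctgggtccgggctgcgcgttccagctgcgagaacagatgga
Chrm3: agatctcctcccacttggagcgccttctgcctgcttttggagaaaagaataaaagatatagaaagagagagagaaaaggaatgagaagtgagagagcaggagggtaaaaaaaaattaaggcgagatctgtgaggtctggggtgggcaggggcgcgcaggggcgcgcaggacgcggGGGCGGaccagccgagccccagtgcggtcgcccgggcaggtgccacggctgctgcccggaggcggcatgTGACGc
Chrm4: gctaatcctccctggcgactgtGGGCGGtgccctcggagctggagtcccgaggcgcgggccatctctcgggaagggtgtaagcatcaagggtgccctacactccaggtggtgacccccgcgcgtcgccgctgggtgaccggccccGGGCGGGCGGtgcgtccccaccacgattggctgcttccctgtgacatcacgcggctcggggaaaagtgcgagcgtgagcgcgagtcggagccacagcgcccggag

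The windows of *Chat* and *Slc18a3* share 0 bases and hold different matches. That of *Chat* has an E-box 101 bases before the start and a cAMP half-site, and that of *Slc18a3* has 2 GC boxes and no match to the other motifs. The window of *Chrm3* has a cAMP half-site and a GC box, and that of *Chrm4* has 3 GC boxes, 2 of which overlap. RefSeq promoters were at hand for 9 of the 10 genes, all but *Chrm5*. Among these, 2 held the E-box (*Chat*, and *Ache* 229 bases before its start), 5 the cAMP half-site, 6 the GC box and 0 the homeodomain core. Of 27457 rat promoters of the same length, 5.79%, 19%, 32.4% and 4.94% held these motifs. These are matches of letters only.

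The first question was whether any of these genes changed between 12 h and 24 h of abstinence, or between either time and the non-addicted rats. By edgeR's quasi-likelihood test, 0 of the 10 genes passed in any of the 3 comparisons (adjusted p below 0.05 over all genes tested and a fold change, FC, of at least 1.5). DESeq2 called 0 in each comparison, and edgeR's likelihood ratio test called 0, 0 and 1. Of all genes tested, 2% passed by the quasi-likelihood test in MA24 vs. MA12 (215 genes), 0.102% in non-addicted vs. MA12 (11) and 0.149% in non-addicted vs. MA24 (16). DESeq2 called 330, 82 and 116 of all genes, and the likelihood ratio test 355, 91 and 150. *Chrm1* in MA24 vs. MA12, and *Ache* and *Chrm1* in non-addicted vs. MA12, fell to the filter on low variance and are given from the fit without it. An unadjusted p below 0.05 was reached by 6 of 9 tested members in MA24 vs. MA12 (23.3% of all genes), by 2 of 8 in non-addicted vs. MA12 (12.5%) and by 4 of 10 in non-addicted vs. MA24 (17.6%). Groups did not overlap for 3 of 9 tested members (15.1% of all genes), 2 of 8 (7.19%) and 1 of 10 (9.78%). The 3 comparisons share rats, so their values are set side by side and not compared with each other. In non-addicted vs. MA24 every MA24 rat and no non-addicted rat has a number with N. Group and kind of rat number therefore cannot be told apart in any value of that comparison.

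In MA24 vs. MA12 the 95% interval of the log2 FC lay within the 1.5-fold limits (0.585 on the log2 scale) for 5 of the 10 genes, namely *Chat*, *Slc5a7*, *Ache*, *Chrm1* and *Chrm4*. The same held for 7 genes in each of the other comparisons. The median log2 FC of the tested members was 0.16 in MA24 vs. MA12 (−0.01 over all genes), 0.01 in non-addicted vs. MA12 (−0.01) and −0.15 in non-addicted vs. MA24 (0.01).

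**Figure D1:**
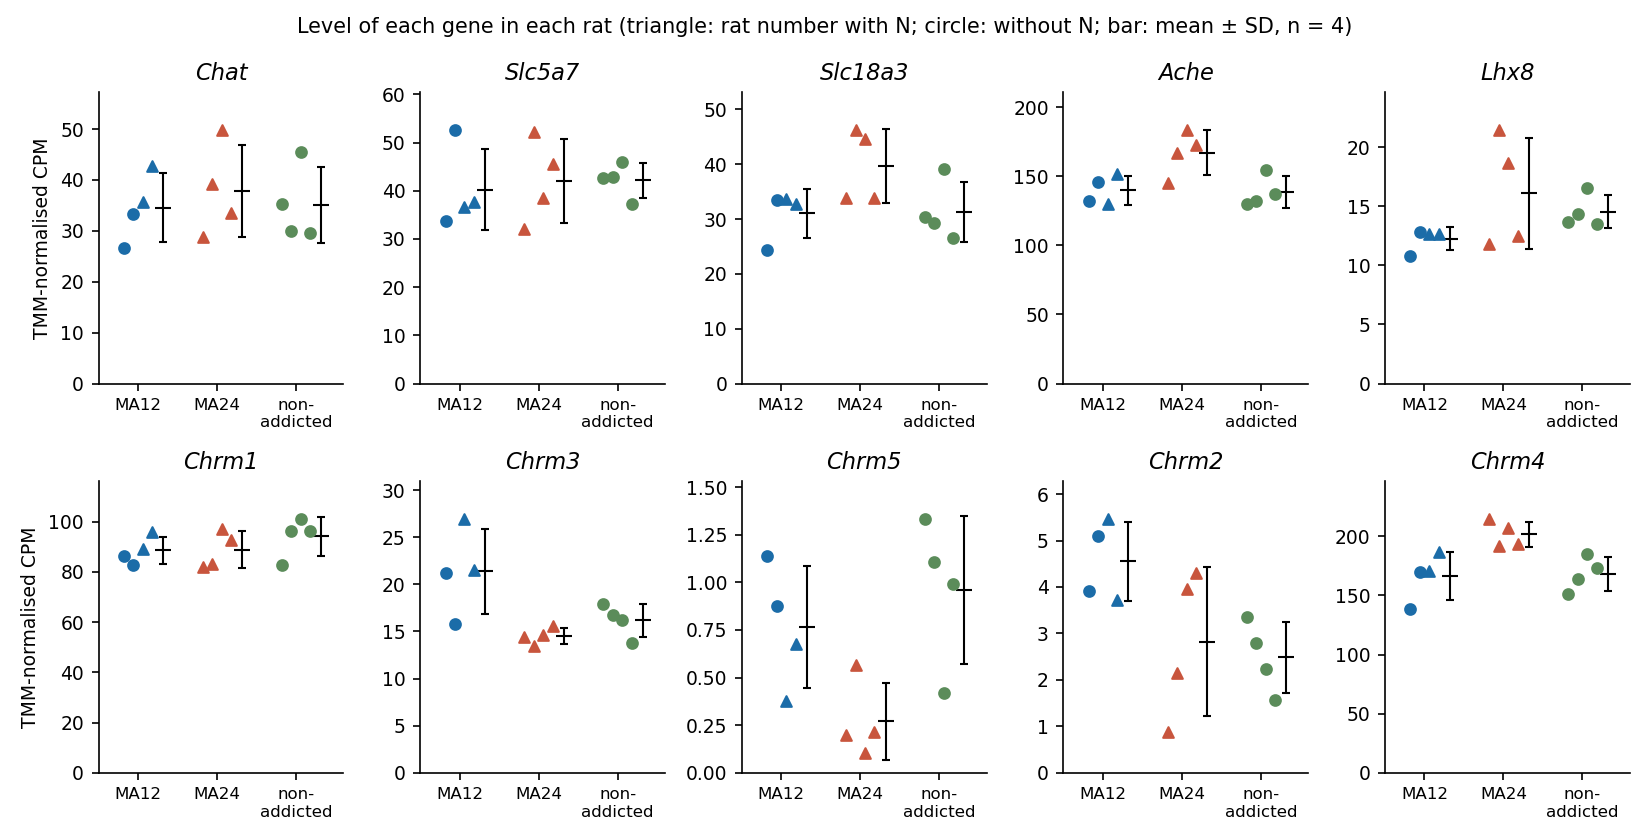
Level of each of the 10 genes in each rat, in TMM-scaled CPM on axes of their own, by group, with triangles for rats whose number ends in N, circles for the others, and a bar for the mean ± SD (n = 4). *Chrm4* lay between 192 and 215 CPM in the MA24 rats and between 139 and 187 CPM in the MA12 rats, whereas *Chat* overlapped throughout.

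*Chat* differed little between groups and widely between rats of a group. It stood at 26.6, 33.2, 35.6 and 42.8 CPM in MA12 rats 21, 31, 4N and 7N, at 33.4, 28.9, 39.1 and 49.8 CPM in MA24 rats 9N, 14N, 15N and 16N, and at 29.6, 35.3, 30.0 and 45.6 CPM in non-addicted rats 9, 11, 12 and 13. All 3 groups overlapped, and the highest rat of each was 1.5 or more times its lowest. The log2 FC was 0.16 in MA24 vs. MA12 (SE 0.16, adjusted p = 0.608), 0.02 in non-addicted vs. MA12 (SE 0.16, adjusted p = 0.980) and −0.13 in non-addicted vs. MA24 (SE 0.16, adjusted p = 0.714).

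The choline transporter *Slc5a7* also overlapped in all 3 groups. Its levels were 33.8, 52.6, 36.7 and 37.8 CPM in MA12, 45.6, 32, 52.1 and 38.4 CPM in MA24, and 37.2, 42.6, 42.9 and 46.0 CPM in the non-addicted rats, in the same order of rats. The highest and lowest rats of MA12 and of MA24 spanned nearly the same range, and the non-addicted rats lay inside it. In MA24 vs. MA12 the log2 FC was 0.09 (SE 0.15, adjusted p = 0.767), with a 95% interval of −0.23 to 0.41, and in the other comparisons it was 0.06 and −0.02 (adjusted p = 0.882 and 0.957).

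The vesicular transporter *Slc18a3* was higher in each MA24 rat than in any MA12 rat, but narrowly. It stood at 24.4, 33.4, 33.7 and 32.7 CPM in MA12, at 33.8, 33.8, 46.2 and 44.7 CPM in MA24, and at 26.6, 30.3, 29.4 and 39.2 CPM in the non-addicted rats. The lowest MA24 rat (33.76 CPM) and the highest MA12 rat (33.68 CPM) were nearly equal, and MA12 rat 21 stood alone at the low end. The log2 FC of MA24 vs. MA12 was 0.38 (SE 0.14, 95% interval 0.09 to 0.66, adjusted p = 0.109), 0.27 without rat 21 (adjusted p = 0.283) and 0.25 among rats numbered with N (adjusted p = 0.479). Against MA24 the non-addicted rats were lower by a log2 FC of −0.36 (SE 0.14, adjusted p = 0.203), and against MA12 the log2 FC was 0.01 (adjusted p = 0.986).

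*Lhx8*, the developmental regulator, was the least abundant of the genes of the cholinergic cells by counts, with 225 to 418 per library. MA12 rats had 10.8, 12.9, 12.7 and 12.7 CPM, MA24 rats 12.5, 11.8, 21.5 and 18.7 CPM, and non-addicted rats 13.5, 13.7, 14.4 and 16.6 CPM. The MA24 rats fell into a low pair (9N and 14N), which overlapped MA12, and a high pair (15N and 16N), while all non-addicted rats lay above all MA12 rats. The log2 FC was 0.42 in MA24 vs. MA12 (SE 0.18, 95% interval 0.04 to 0.80, adjusted p = 0.169) and 0.24 in non-addicted vs. MA12 (SE 0.13, adjusted p = 0.466).

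*Ache*, which is made by many neurons besides the cholinergic ones, had 132, 146, 130 and 152 CPM in MA12, 173, 145, 167 and 183 CPM in MA24, and 137, 130, 132 and 155 CPM in the non-addicted rats. In MA24, 3 of 4 rats lay above every other rat, and rat 14N lay within the range of MA12. The log2 FC was 0.28 in MA24 vs. MA12 (SE 0.10, 95% interval 0.07 to 0.50, adjusted p = 0.102), 0.25 among rats numbered with N (adjusted p = 0.407), −0.02 in non-addicted vs. MA12 (adjusted p = 0.949) and −0.29 in non-addicted vs. MA24 (SE 0.10, adjusted p = 0.169).

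Among the receptors coupled to Gq, *Chrm1* (M1) was the steadiest of the 10 genes. It lay between 82.8 and 95.9 CPM in MA12, 82.0 and 97.2 CPM in MA24, and 82.8 and 101 CPM in the non-addicted rats, so that the highest of the 12 rats was 1.23 times the lowest. The log2 FC was 0.01 in MA24 vs. MA12 (SE 0.08, 95% interval −0.17 to 0.18, adjusted p = 0.976), 0.08 in non-addicted vs. MA12 (adjusted p = 0.754) and 0.06 in non-addicted vs. MA24 (adjusted p = 0.784).

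*Chrm3* (M3) came closest to the threshold. MA12 rats had 21.3, 15.8, 26.9 and 21.6 CPM, MA24 rats 15.6, 14.5, 13.5 and 14.7 CPM, and non-addicted rats 13.8, 17.9, 16.7 and 16.2 CPM. Every MA24 rat lay below every MA12 rat, the MA24 rats were close together (14.5 ± 0.867 CPM, SD, n = 4) and the MA12 rats were not (21.4 ± 4.52 CPM). The log2 FC of MA24 vs. MA12 was −0.53 (SE 0.15, 95% interval −0.84 to −0.22), with an adjusted p of 0.0546 by the quasi-likelihood test, 0.0252 by DESeq2 and 0.0216 by the likelihood ratio test, and in each case the FC was below 1.5. Without MA12 rat 31 (log2 FC −0.65, adjusted p = 0.0316), and among rats numbered with N (log2 FC −0.74, adjusted p = 0.0316), *Chrm3* passed both limits. It did not with the kind of number as a covariate (log2 FC −0.73, adjusted p = 0.0652), and without MA12 rat 4N, the highest of the 12 rats, the log2 FC was −0.39 (adjusted p = 0.127). The summed thalamic markers were also lower in each MA24 rat than in any MA12 rat, and their part in this result was not tested. In non-addicted vs. MA12 the log2 FC was −0.41 (SE 0.15, adjusted p = 0.286) and among rats numbered without N it was −0.16 (adjusted p = 0.810).

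*Chrm5* (M5), known best from midbrain dopamine neurons, was near the limit of detection. Counts were 27, 21, 8 and 12 in MA12 rats, 5, 4, 11 and 2 in MA24 rats, and 19, 27, 27 and 8 in non-addicted rats. Of the MA24 rats, 3 lay below every rat of the other groups, and 15N, with 11 counts, lay above the lowest rat of each (8 counts). The log2 FC was −1.47 in MA24 vs. MA12 (SE 0.61, 95% interval −2.77 to −0.17, adjusted p = 0.161) and 1.79 in non-addicted vs. MA24 (SE 0.60, 95% interval 0.54 to 3.05, adjusted p = 0.156), and the latter passed by the likelihood ratio test but under no other alternative tried (adjusted p = 0.0461). The kind of rat number moved with this gene, since counts were 2 to 12 in the 6 rats with N and 8 to 27 in the 6 rats without, and within MA12 they were 8 and 12 against 21 and 27. Among rats numbered with N the log2 FC of MA24 vs. MA12 was −0.94 (adjusted p = 0.631), and with the kind of number as a covariate it was −0.93 (adjusted p = 0.575). Of the 4 markers of midbrain dopamine neurons, *Slc6a3*, *Chrna6* and *Chrnb3* had 0 to 4 counts per library, and *Th*, which striatal interneurons also express, had 2 to 34. The part of such cells or fibres in the counts of *Chrm5* was not tested.

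Among the receptors coupled to Gi/o, *Chrm2* (M2) was the rarer, with 18 to 122 counts per library, and the more variable. It stood at 3.91, 5.10, 5.46 and 3.73 CPM in MA12, at 4.30, 0.888, 2.16 and 3.96 CPM in MA24, and at 1.56, 3.35, 2.79 and 2.24 CPM in the non-addicted rats. All non-addicted rats lay below all MA12 rats, whereas the MA24 rats ran from the lowest value of the 12 (rat 14N) into the MA12 range. The log2 FC of non-addicted vs. MA12 was −0.88 (SE 0.27, 95% interval −1.45 to −0.31, adjusted p = 0.182) and that among rats numbered without N was −0.82 (adjusted p = 0.371). In MA24 vs. MA12 it was −0.65 (SE 0.36, adjusted p = 0.293) and in non-addicted vs. MA24 −0.21 (SE 0.40, adjusted p = 0.813).

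*Chrm4* (M4) separated the MA24 rats from all others. MA12 rats had 139, 170, 171 and 187 CPM, MA24 rats 194, 214.5, 192 and 207 CPM, and non-addicted rats 173, 151, 164 and 185 CPM. The lowest MA24 rat was above the highest of the other 8 rats. The log2 FC was 0.30 in MA24 vs. MA12 (SE 0.10, 95% interval 0.08 to 0.52, adjusted p = 0.0979) and −0.28 in non-addicted vs. MA24 (SE 0.10, adjusted p = 0.158), while in non-addicted vs. MA12 it was 0.01 (SE 0.11, adjusted p = 0.986). Among rats numbered with N the log2 FC of MA24 vs. MA12 was 0.17 (adjusted p = 0.550). Summed markers of projection neurons, the cells that carry most M4, reached 16680 to 18440 CPM in MA24. They reached 14030 to 18010 CPM in MA12 and 13960 to 16950 CPM in the non-addicted rats. Within MA12 the sums were 17220 and 18010 CPM in rats 4N and 7N, and 14030 and 14330 CPM in rats 21 and 31. The part of projection neurons, or of the kind of rat number, in this result was not tested.

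**Figure D2:**
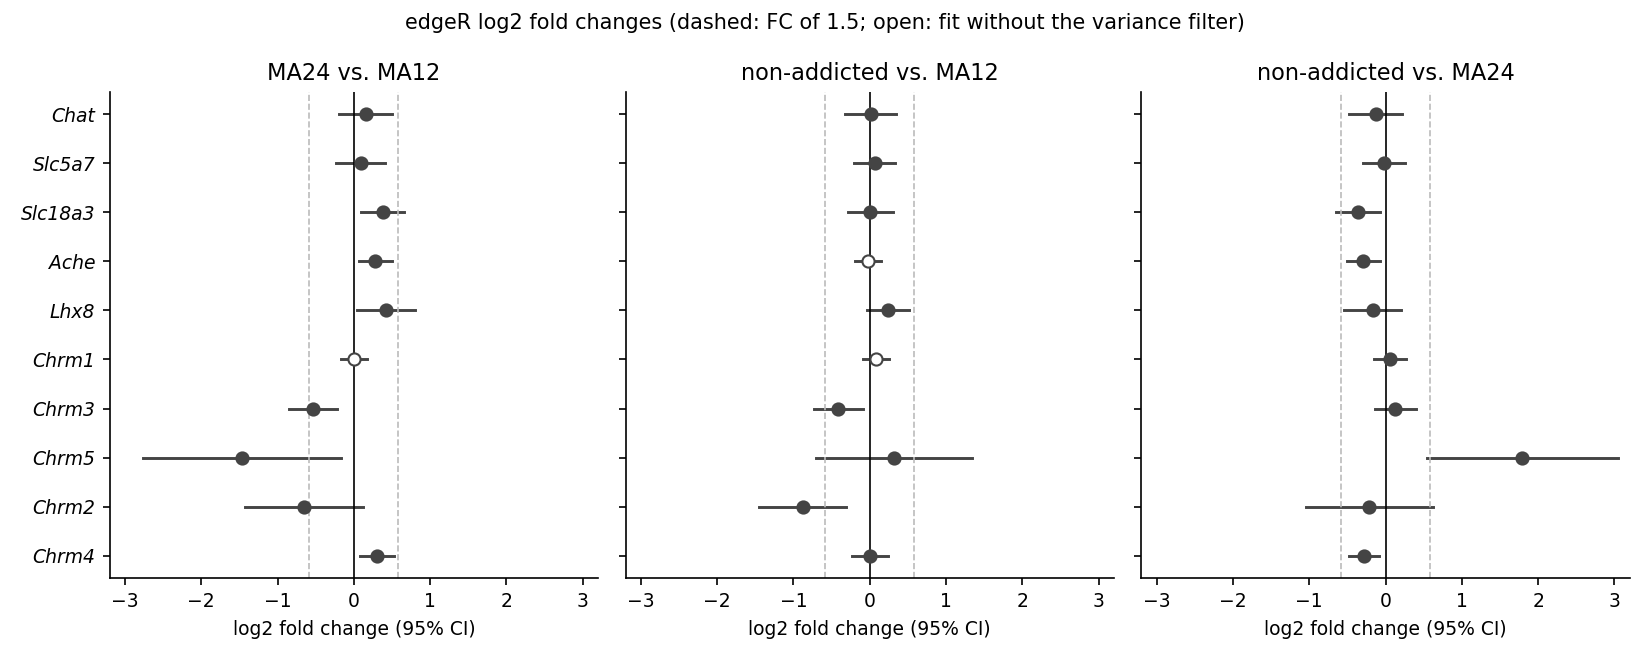
Log2 FC of each gene in the 3 comparisons, as points with 95% intervals from the quasi-likelihood fit, with dashed lines at an FC of 1.5 in either direction and open points for values from the fit without the variance filter. The interval of *Chrm3* in MA24 vs. MA12 runs from −0.84 to −0.22, that of *Chrm1* stays near 0, and those of *Chrm5* and *Chrm2* are the widest.

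The genes also differed in how much rats of one group varied. The SD of log2 CPM within groups was compared with that of genes whose mean count was 0.5 to 2 times that of the gene. *Chat* (SD 0.30) stood at percentile 95 of 4190 such genes, *Slc5a7* (0.25) at percentile 91.4 and *Slc18a3* (0.24) at percentile 88.1, so that the genes of the cholinergic terminal were among the more variable at their depth. *Chrm2* (0.65) stood at percentile 92.3. The receptors with most counts were nearer the middle, with *Chrm4* (0.13) at percentile 70 and *Chrm1* (0.11) at 46.3, as were *Ache* at 62.2, *Chrm3* at 63.8 and *Lhx8* at 76.7. *Chrm5*, whose large spread (0.66) is shared by genes with few counts, stood at percentile 43.3.

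Some pairs of genes of the cholinergic cells were related across rats by r, but no rho had an adjusted p below 0.05. How often other genes of similar depth are related as closely was not tested. Over the 12 libraries, log2 CPM of *Chat* and *Slc18a3* were related with r = 0.785 (permutation p = 0.00259, adjusted over 6 pairs 0.00777) and rho = 0.643 (p = 0.0277, adjusted 0.0769). Without the 2 rats farthest from the median of *Chat*, r was 0.661. After the group means were removed it was 0.863, and it was 0.563 among the 6 rats with N and 0.938 among the 6 without. Since the genes overlap, a share of reads counted for both was not tested.

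*Slc18a3* and *Lhx8*, which lie on different chromosomes, gave r = 0.811 (permutation p = 0.00129, adjusted 0.00774), yet rho was 0.441 (p = 0.155, adjusted 0.22) and r without the 2 farthest rats was 0.62. *Chat* and *Lhx8* gave r = 0.676 (permutation p = 0.0148, adjusted 0.0296) and rho = 0.636 (p = 0.0302, adjusted 0.0769), with r = 0.487 without the 2 farthest rats. For *Slc5a7*, r was 0.318 with *Chat* (permutation p = 0.311, adjusted 0.311), 0.453 with *Slc18a3* (p = 0.137, adjusted 0.164) and 0.535 with *Lhx8* (p = 0.0724, adjusted 0.109). The rho values of these pairs were 0.413 (permutation p = 0.183, adjusted 0.22), 0.364 (p = 0.244, adjusted 0.244) and 0.608 (p = 0.0384, adjusted 0.0769), and r without the 2 farthest rats was 0.437, 0.293 and 0.501. Differences between the pairs were not tested. MA12 rat 21 was the lowest of the 12 rats in *Chat*, *Slc18a3* and *Lhx8*.

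**Figure D3:**
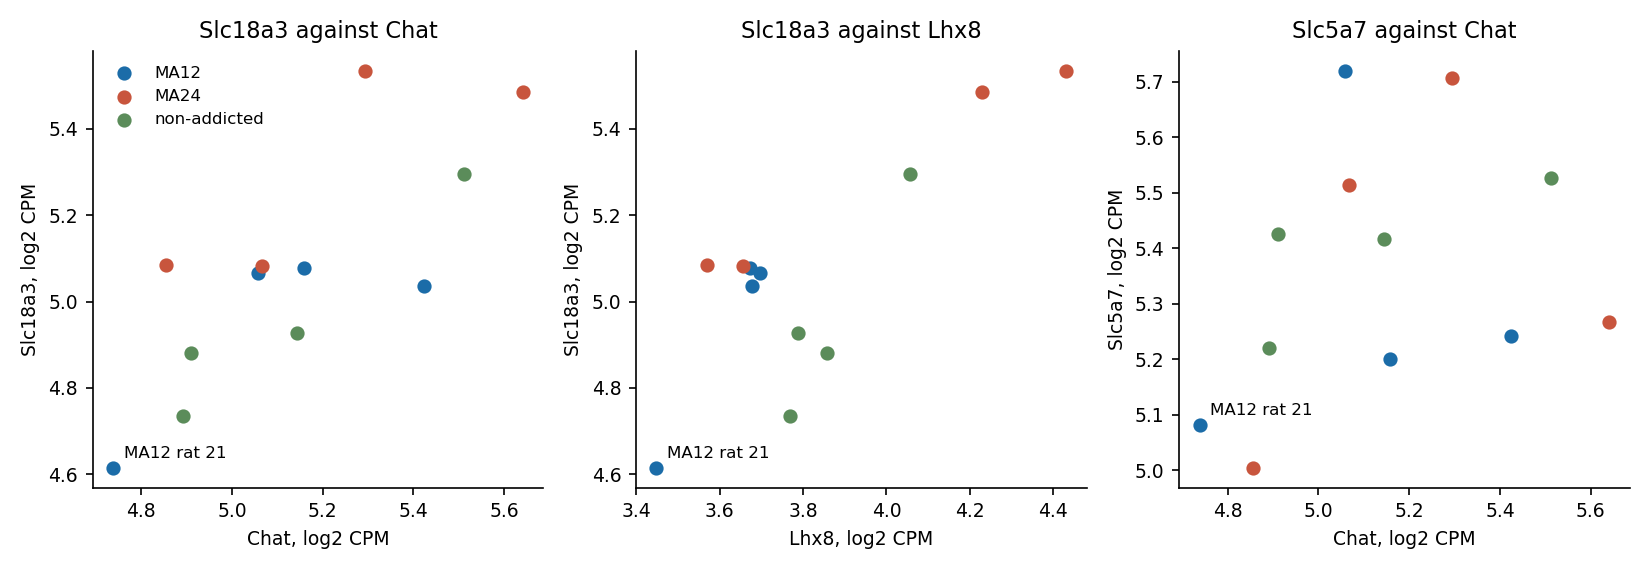
Log2 CPM of *Slc18a3* against *Chat*, of *Slc18a3* against *Lhx8* and of *Slc5a7* against *Chat*, with 1 point per rat coloured by group and MA12 rat 21 named. The 3 pairs gave r = 0.785, 0.811 and 0.318 and rho = 0.643, 0.441 and 0.413 over the 12 rats.

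For each rat, the mean of *Chat*, *Slc5a7* and *Slc18a3* in log2 CPM, centred per gene, ran from −0.38 in MA12 rat 21 to 0.32 in MA24 rat 15N. Of 10756 other genes with a mean count of at least 50, those most like this profile over the 12 libraries included *Gpr146*, an orphan receptor (r = 0.912), *Prkab1*, a regulatory subunit of AMP-activated kinase (0.889), *Acly*, which makes cytosolic acetyl-CoA (0.884), and *Abcc4*, an export pump (0.870). Those most like *Chrm2* were *Gfod1* (r = 0.950), *Mroh1* (0.949), *Lrrc58* (0.948), *Prex1*, a Rac exchange factor (0.944), and *Spata13* (0.940). These are the top of long rankings over 12 libraries that differ in group and depth, and no test was made of them.

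Of 10 other genes known from cholinergic neurons, all tested, 0 were called in any comparison by edgeR or DESeq2. In MA24 vs. MA12, 3 had an unadjusted p below 0.05 (23.3% of all genes), and the median log2 FC was −0.09 (−0.01 over all genes). They included *Slc10a4* and, named after its values were seen, *Zic4* (log2 FC −1.67, adjusted p = 0.115). *Zic4* was highest in MA12 rat 21 (5.22 CPM) and non-addicted rat 11 (4.69 CPM), the rats with the highest sums of thalamic and of pallidal and basal forebrain markers, and the part of those tissues was not tested. The members with most counts were *Slc10a4*, a vesicular transporter-like protein of cholinergic and aminergic cells (log2 FC 0.36, SE 0.14, adjusted p = 0.123), and *Ecel1*, a membrane endopeptidase (0.20, SE 0.16, adjusted p = 0.480). With each rat left out, *Slc10a4* ran from 0.24 without MA12 rat 21 (adjusted p = 0.313) to 0.42 without MA24 rat 9N (adjusted p = 0.0768). Among rats numbered with N its log2 FC was 0.21 (adjusted p = 0.523). In the other comparisons the median log2 FC was −0.08 and −0.04.

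Of 12 genes that handle acetylcholine or choline, 10 were tested in MA24 vs. MA12, 10 in non-addicted vs. MA12 and 9 in non-addicted vs. MA24. None was called (0 of each), and 1 had an unadjusted p below 0.05 in each comparison (23.3%, 12.5% and 17.6% of all genes). These were *Chka*, *Bche* and *Colq* in turn, named after their values were seen. The median log2 FC was −0.03, −0.07 and −0.18. The choline transporters *Slc44a1* and *Slc44a2*, the most abundant of the list by counts, had a log2 FC of −0.01 (SE 0.12, adjusted p = 0.973) and 0.17 (SE 0.10, adjusted p = 0.316) in MA24 vs. MA12.

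Of 16 nicotinic receptor subunits, 9 had a mean count above 4 and were tested, and 0 were called in any comparison. In MA24 vs. MA12, 2 of the 9 did not overlap (15.1% of all genes), both lower in MA24, namely *Chrna7*, the subunit of the homomeric α7 receptor (log2 FC −0.86, SE 0.28, adjusted p = 0.0844), and *Chrnb2*, which pairs with α4 and α6 in striatal receptors (−0.40, SE 0.14, adjusted p = 0.0979). *Chrna7* passed in 3 of 19 alternatives, namely by DESeq2, by the likelihood ratio test and without MA24 rat 9N. With each other rat left out, its adjusted p was 0.0912 to 0.214. Among rats numbered with N the log2 FC was −0.79 for *Chrna7* (adjusted p = 0.286) and −0.45 for *Chrnb2* (adjusted p = 0.196). The median log2 FC of the list was −0.11, −0.26 and 0.06 in the 3 comparisons.

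By the quasi-likelihood test, only the list of genes through which muscarinic receptors signal held calls. Like the other lists, it was chosen with earlier results of these data known. Its shares below are therefore descriptions and not a test of the list. Of 19 listed genes, 16 were tested in MA24 vs. MA12. Of these, 2 were called lower and 0 higher (2% of all genes were called). An unadjusted p below 0.05 was reached by 10 (23.3% of all genes), 7 did not overlap (15.1%), and the median log2 FC was −0.33 (−0.01 over all genes). *Kcnq3*, a subunit of the M-current potassium channel that Gq-coupled muscarinic receptors close, fell from 88.3 ± 7.77 CPM in MA12 (80.6 to 95.9) to 46.6 ± 11.2 CPM in MA24 (33.3 to 60.1, SD, n = 4). Its groups lay far apart, with a log2 FC of −0.89 (SE 0.14, adjusted p = 0.0115), and of −0.92 among rats numbered with N (adjusted p = 0.00773). The mean of the non-addicted rats lay between (59.0 ± 13.9 CPM), with a log2 FC of −0.59 against MA12 (SE 0.14, adjusted p = 0.109).

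*Kcnj6*, which encodes GIRK2, a potassium channel subunit opened through Gi/o, fell by a log2 FC of −1.51 (SE 0.40, adjusted p = 0.0463), from 2.45 to 12.5 CPM in the MA12 rats to 1.64 to 2.62 CPM in the MA24 rats. The groups overlapped, and the fall depended on which rats entered. It was −0.97 on the log2 scale without MA12 rat 21 (adjusted p = 0.168) and −0.36 among rats numbered with N (adjusted p = 0.683), and without MA12 rat 31 or MA24 rats 14N, 15N or 16N the adjusted p was 0.0903, 0.0958, 0.0960 and 0.121. *Kcnj6* was highest in MA12 rat 21 (12.5 CPM) and non-addicted rat 11 (16.9 CPM), which were also the highest of the 12 rats in the summed markers of thalamus (58.5 and 68.7 CPM) and of pallidum and basal forebrain (80 and 83.8 CPM). In the MA24 rats these sums were 23.7 to 27.9 and 50 to 58.7 CPM, and their part in the fall was not tested. The log2 FC of non-addicted vs. MA24 was 1.84 (SE 0.40, adjusted p = 0.0561). The most abundant genes of the list by counts were *Itpr1*, the IP3 receptor (log2 FC −0.20, SE 0.13, adjusted p = 0.386), and *Rgs9*, a regulator of G protein signalling enriched in projection neurons (0.36, SE 0.12, adjusted p = 0.0842). Among rats numbered with N, *Rgs9* had a log2 FC of 0.17 (adjusted p = 0.533), and with the kind of number as a covariate 0.18 (adjusted p = 0.450). The summed markers of projection neurons, which include *Rgs9*, reached 16680 to 18440 CPM in MA24 and 14030 to 18010 CPM in MA12. Within MA12 the sums were 17220 and 18010 CPM in rats 4N and 7N, and 14030 and 14330 CPM in rats 21 and 31. The part of projection neurons in the value of *Rgs9* was not tested.

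For several further members of this list the adjusted p lay just above 0.05, and they are named after their values were seen. Each of them had an FC below 1.5. A part of muscarinic receptors in the values of this list was not tested. *Gnaq*, the α subunit of Gq, had a log2 FC of −0.58 in MA24 vs. MA12 (adjusted p = 0.0609), and *Plcb1* and *Plcb4*, phospholipases downstream of Gq, had values of −0.37 and −0.38 (adjusted p = 0.0578 and 0.0609). *Gnai1*, an α subunit of Gi, had a log2 FC of −0.35 (adjusted p = 0.0614). In the other comparisons 0 genes of the list were called, 5 and 4 of 16 had an unadjusted p below 0.05 (12.5% and 17.6% of all genes), and the median log2 FC was −0.12 and 0.14.

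**Figure D4:**
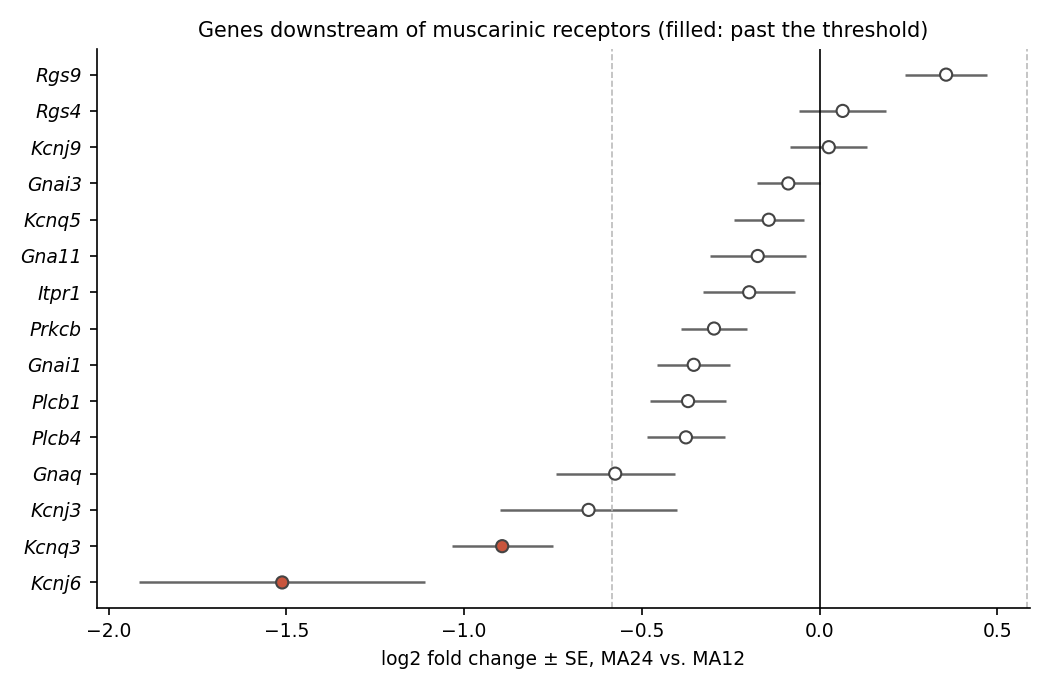
Log2 FC of MA24 vs. MA12 (± SE) for 15 of the 16 tested genes through which muscarinic receptors signal, with filled points for the 2 that passed the threshold. *Kcnq3* (−0.89) and *Kcnj6* (−1.51) passed, the error of *Kcnj6* is the widest, and *Rgs9* (0.36) lies on the side of higher levels in MA24.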

How the data were processed

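Poly-A RNA from the striatum of 12 rats (4 in each of 3 groups, mapped by their labels) was sequenced as paired-end reads. After trimming with Cutadapt, the authors mapped the reads to the rn6 genome with STAR 2.7.0e and used featureCounts to count them on genes. The deposited values are raw counts that were not normalized. The submitters' processing notes also name HTSeq 0.12.4, whose role is not given. How strands and reads at several positions were counted is not given in the sources used here, so counts of overlapping genes, such as *Chat* and *Slc18a3*, are uncertain. Total counts per rat were 17908962 to 23850284.

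Every comparison used its own 8 libraries. Genes whose mean count exceeded 4 entered, of which the 15% that varied least in log2 CPM were dropped, and the counts were compared with edgeR 4.0.16 (TMM, glmQLFit, glmQLFTest) in R 4.3.3. Genes passed at a Benjamini-Hochberg adjusted p below 0.05 over all genes tested (10754, 10758 and 10744 in the 3 comparisons) and an FC of at least 1.5. These filters are one reading of the study's methods. Levels are TMM-scaled CPM, and relations used log2 CPM with a prior count of 2 and two-sided permutation tests with 1e+05 resamples. Motifs were searched in RefSeq promoters (GRCr8) with Python 3.11.15. The spans of *Chat* and *Slc18a3* were also taken from that build, whereas the counts were made on rn6. The fit was tested on simulated data.

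The 10 genes and the gene lists were chosen with earlier results of these data known. Named besides the 10 genes were the called genes and the 2 with most counts of each list, and the 5 genes most like 2 profiles. Alternatives were RLE factors, DESeq2 1.42.0, the likelihood ratio test, other filters (none, no variance filter, at least 10 counts in every library), a fit over all 3 groups, leaving out each rat in turn, rats of one kind of number, and the kind of number as a covariate. TMM factors from all genes and a robust dispersion estimate were added after the data were seen. Each rat is 1 replicate. A few genes that these rules name are not reported here.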

Additional observations from a re-analysis of the deposited data

Results flagged for a closer look

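In 60 groups of 4 rats (20 named genes in 3 groups), 3 had a rat whose gap to its nearest neighbour exceeded Dixon's 95% critical value for groups of this size, and chance would give 3. All 3 were MA12 rat 21 at the low end. For *Slc18a3* the gap was 0.911 of the range of the group, with 24.4 CPM against 32.7 to 33.7 CPM in the other MA12 rats. For *Lhx8* it was 0.903, with 10.8 CPM against 12.7 to 12.9 CPM. For *Slc10a4* it was 0.953, with 37.9 CPM against 53.8 to 54.7 CPM.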

How the results depend on the processing

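No paired analysis was possible because the groups share no rat number (9 and 9N are different labels). The MA24 vs. MA12 values of the 10 genes were recomputed 171 times, those of non-addicted vs. MA12 154 times and those of non-addicted vs. MA24 169 times, and direction and call were kept in 165, 143 and 160. Sign changes numbered 4, 11 and 8, all with an adjusted p of at least 0.703, and new calls 2, 0 and 1. The count of the 10 genes called in MA24 vs. MA12 was 1 with only rats numbered with N and 0 to 1 when each rat was left out (1 without MA12 rat 31), and in non-addicted vs. MA24 it was 1 by the likelihood ratio test. Nicotinic subunits called in MA24 vs. MA12 were 1 by DESeq2 and by the likelihood ratio test, and 0 to 1 with each rat left out. Muscarinic signalling genes called there (2) became 4 with no filter and with TMM factors from all genes, 1 with no variance filter, all 3 groups in the fit, only rats with N, the kind of number as a covariate or the robust estimate, and 1 to 4 with each rat left out. In non-addicted vs. MA12 they were 1 by the likelihood ratio test and 0 to 1 with each rat left out, and in non-addicted vs. MA24 1 by DESeq2, the likelihood ratio test and TMM factors from all genes, and 0 to 1 with each rat left out. *Kcnq3* was called in MA24 vs. MA12 in all 19 alternatives and *Kcnj6* in 9 of 19. The cause of these changes was not tested.

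The sign changes were these. In MA24 vs. MA12 the log2 FC of *Chat* was −0.052 with only rats with N and −0.042 with the covariate. In non-addicted vs. MA12, with only rats without N, it was −0.00020 for *Slc5a7*, −0.029 for *Chrm5*, −0.28 for *Kcnj6* and 0.039 for *Ecel1*. In non-addicted vs. MA24 that of *Slc5a7* was 0.0027 with no filter and with TMM factors from all genes, and 0.0058 with no variance filter. With each rat left out, the log2 FC ran from −0.011 to 0.29 for *Chat*, −0.025 to 0.25 for *Slc5a7* and −0.094 to 0.068 for *Slc44a1* in MA24 vs. MA12. It ran from −0.14 to 0.14 for *Chat*, −0.018 to 0.21 for *Slc5a7*, −0.13 to 0.093 for *Slc18a3*, −0.051 to 0.019 for *Ache*, −0.049 to 0.072 for *Chrm4*, −0.32 to 0.85 for *Kcnj6*, −0.16 to 0.046 for *Ecel1*, −0.0022 to 0.19 for *Slc10a4*, −0.11 to 0.042 for *Slc44a2* and −0.055 to 0.11 for *Rgs9* in non-addicted vs. MA12. It ran from −0.29 to 0.039 for *Chat*, −0.13 to 0.098 for *Slc5a7*, −0.51 to 0.070 for *Chrm2*, −0.013 to 0.24 for *Chrnb2* and −0.054 to 0.15 for *Itpr1* in non-addicted vs. MA24. Depth limits *Chrm5* (2 to 27 counts per library) most and *Chrm2* (18 to 122) next.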
